A study of Xenopus laevis with 9 samples.

Results

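These are the tails of Xenopus laevis tadpoles that received vehicle alone, the untreated reference of a study of thyroid hormone. The members are the 3 arrays labelled as vehicle tail, of 9 arrays in all, read over every probe set that is not an array control (15491 of 15611). The larvae were at stage 54, which the source label widens to stages 51 to 54, and were held as 2 animals per 500 ml container at 20 C in FETAX medium. Vehicle was in the water for 48 h, and each array carries RNA from a pool of 3 tails. The other 6 arrays, tails after 6 h (3 arrays) or 48 h (3 arrays) in 20 nM of the thyroid hormone T3, enter below only where a vehicle pattern is read again in other samples. The labels do not tie the pools to clutches, and a p-value therefore reflects how far these pools differ, which may be technical.

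The tail of a premetamorphic tadpole is a swimming organ: blocks of fast axial muscle on either side of the notochord and spinal cord, with a fin of loose connective tissue under larval skin. It is later resorbed, when thyroid hormone rises at metamorphic climax. Xenopus laevis descends from a hybrid of related frogs and keeps many genes in duplicate, as homeologs whose suffix .L or .S names the long or the short chromosome set.

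Values are GCRMA intensities, given here as log2 over the median of the array, so 0 is the array median and each unit is a doubling of brightness. A level is that of the brightest probe set of a gene, as mean ± SD over the 3 pools (n = 3). Brightness depends on how well the probes bind as well as on the amount of RNA. Its size as an error can be read from genes with exactly 2 probe sets: the median absolute difference between both readings of the same gene was 1.09, and in 10% of those 533 genes it was at least 3.69. An order of genes by level is therefore an order of probe sets. In bulk tissue, fewer cells of a type and less RNA per cell cannot be told apart. Of the probe sets, 9304 name 1 gene, giving 7531 named genes, of which 4365 (58.0%) lay above the array median in all 3 pools. Correlations between pools across probe sets were 0.993 to 0.994.

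Among named genes, muscle and ribosome transcripts were the brightest in the vehicle tail. Of the 100 brightest probe sets, 33 carry no name here and are outside this order. The highest level was that of ckm.L, muscle creatine kinase, which regenerates ATP from phosphocreatine during contraction. Its values were 9.82, 9.86 and 9.78 in pools 1, 2 and 3, about 902 times the array median. Behind it came mylpf.L, the regulatory light chain of fast myosin, at 9.48, 9.42 and 9.38, and tpm1.L, the tropomyosin that covers the thin filament, at 9.42, 9.35 and 9.47. The pools of mylpf.L and tpm1.L overlapped, so no order between them stands. The myosin heavy chain myh8.L read 9.48, 9.39 and 9.32. The small ribosomal protein rps29.S read 9.32, 9.23 and 9.36, and the parvalbumin family gene ocm4.1.L, a calcium buffer of fast fibres, read 9.30, 9.31 and 9.29.

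Of the 25 brightest named genes, 8 are on the fast muscle list: those 5 muscle genes, the calcium pump atp2a1.S of the sarcoplasmic reticulum (9.08 ± 0.06), and the fast troponins tnnt3.S (8.90 ± 0.11) and tnni2.S (8.89 ± 0.02). The other 17 are ribosomal proteins, from rps29.S (9.30 ± 0.06) to rpl6.S (8.73 ± 0.03), except for eef1a1.S, the elongation factor that brings aminoacyl-tRNA to the ribosome (9.17 ± 0.04). They include rps19.S (9.19), rpl35a.S (9.11), rpl23a.S (9.11), rps27.S (9.07), rps14.S (8.99), rpl10.S (8.98), rpl32.L (8.94) and rpl27a.L (8.89). Fainter among them were rpl8.S (8.81), rps3a.L (8.80), rps24.L (8.78), rplp0.S (8.77), rps12.L (8.74) and rps2.L (8.73). SDs over pools in the 25 ran from 0.01 to 0.11. Even so, neighbours in the order mostly overlapped: in 2 of 24 steps, ckm.L to mylpf.L and ocm4.1.L to rps19.S, all pools of the brighter gene lay above all pools of the next. Without probe sets whose ID ends in _s_at, _x_at or _a_at, which can bind more than 1 transcript, 17 of the 25 stayed among the 25 brightest.

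**Figure D1:**
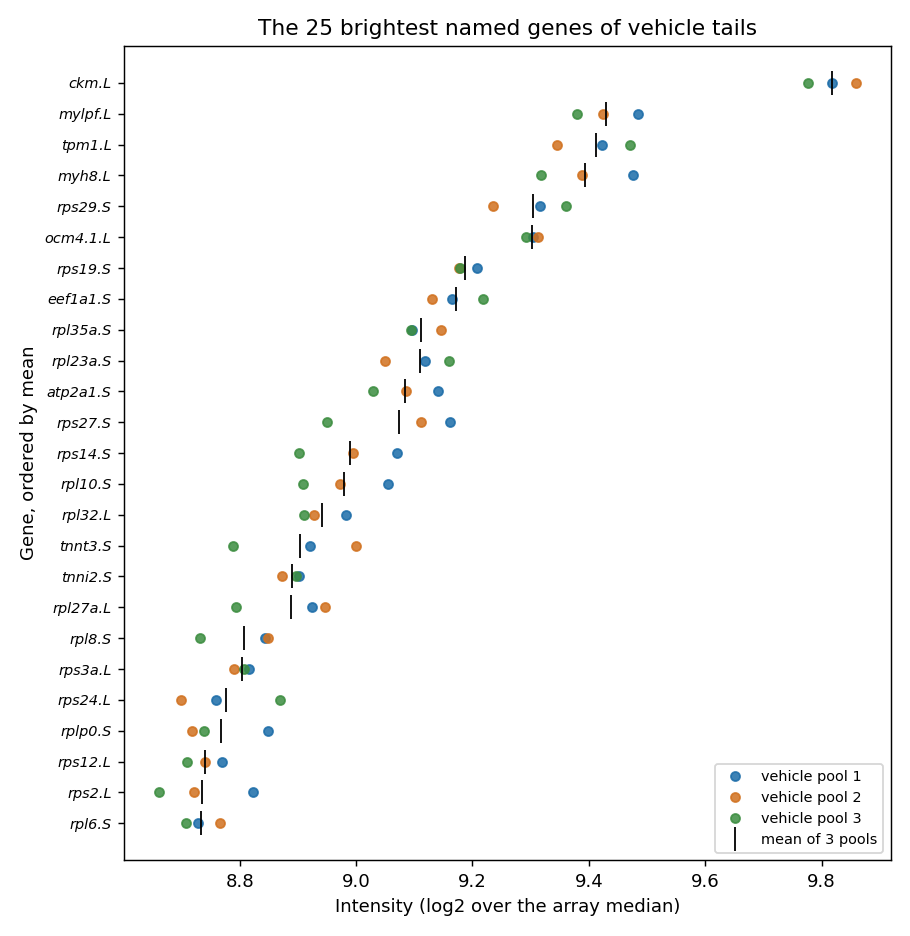
Intensity of the 25 brightest named genes on each of the 3 vehicle arrays, in log2 over the array median, with a bar at the mean. ckm.L stands apart at 9.82. The pools of neighbouring genes overlap in all of the 24 steps but 2, ckm.L to mylpf.L and ocm4.1.L to rps19.S.

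The levels of genes that mark tissues were described list by list. The fast muscle genes, for contraction and calcium handling, had 45 of 47 genes above the array median in all 3 pools and a median level of 5.87, against 0.74 over all named genes. In the 100 brightest named genes it had 13 members, not counting the desmin gene des.1.S, whose symbol was not matched. The list held 8.56% ± 0.17 (SD, n = 3) of the summed linear intensity of all named genes. Its lowest member was myh3.S, a myosin heavy chain, at -1.15 ± 0.08. Slow and cardiac muscle genes lay much lower, with a median of 1.68 over 17 genes. Of these 17, 10 were above the array median in all pools (58.8%, against 58.0% over all named genes). This list mixes genes of slow fibres with genes of the heart, so its median does not compare slow with fast fibres. The brightest were tnnc1.S, the calcium sensor of slow and cardiac muscle, at 5.36 ± 0.06, tpm3.S at 5.10 ± 0.08, tpm3.L at 3.82 ± 0.18, the calcium store protein casq2.S at 3.78 ± 0.21 and the calcium pump atp2a2.S at 3.30 ± 0.09. Smooth muscle genes had a median of 2.62 over 9, led by the light chains myl9.L (4.35) and myl9.S (3.50), acta2.L (3.14), smtn.L (2.65) and tagln.L (2.62). Of the 9, 6 were above the array median in all pools (66.7%, against 58.0% over all named genes). Below it in every pool were myh11.S (-0.80), tagln.S (-1.28) and cnn1.S (-1.39).

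Skin genes spanned a wide range of levels. Of 57 epidermal genes, 43 were above the array median in all pools, with a median of 2.76. The brightest was the keratin krt12.5.S, at 8.10 ± 0.16, with pool 3 the highest at 8.28. It was followed by krt62.L (7.72 ± 0.08), krt7.L (7.39 ± 0.06) and a pair of genes named for their fall under thyroid hormone, thdl17.L (7.16 ± 0.14) and thdl18.S (6.58 ± 0.22). Some cell junction genes were also bright, among them the envelope protein ppl.L (6.40) and the tight junction claudin cldn7.L (5.87). So were the adhesion protein epcam.S (5.42) and epcam.L (5.40), and the desmosome protein perp.S (5.20). Other junction genes were dimmer, such as dsp.S (1.14) and dsp.L (0.62). The claudins cldn6.1.L (-0.87) and cldn6.2.L (-1.61) had means below the array median. Keratin levels reached down to krt55.L (-2.39), krt51.L (-2.40) and krt70.L (-2.42). No gene of the list for ionocytes and goblet cells, specialised cells of the larval skin, was above the array median in all pools (0 of 7). Its highest members were the proton pump subunits atp6v1b1.L (-0.85) and atp6v0a4.L (-1.58) and the ionocyte regulator foxi1.L (-1.76), followed by ca12.L (-1.78) and foxa1.S (-1.84).

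Connective tissue genes were bright and notochord and cartilage genes modest. Of 18 genes of fibroblasts and loose matrix, 17 lay above the array median in all pools, with a median of 4.61. Type I collagen led, with col1a1.S at 7.77, 7.95 and 7.61 and col1a2.L at 7.01 ± 0.25, both highest in pool 2. Next were the collagen-binding sparc.S (6.24) and sparc.L (6.17), and fibronectin fn1.S (6.07). Only col5a1.L (-0.75) of this list was not above the median in every pool. Of 11 notochord and cartilage genes, 6 passed that line (54.5%, against 58.0% over all named genes) and the median was 0.58. The brightest were cnmd.L, chondromodulin, at 3.62, 3.84 and 2.90, col2a1.S at 3.49, 3.46 and 2.95, and col9a1.L at 2.79, 3.13 and 2.56, each lowest in pool 3. The others in order were col9a1-b (1.26) and the cartilage regulator sox9.S (0.64). The notochord regulator tbxt.S lay at the bottom (-2.74 ± 0.06), and shh.L, the signal of the notochord and floor plate, at -0.54 ± 0.12.

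Blood, nerve, vessel and pigment lists had lower medians than the fibroblast and loose matrix list. The globins hbd.S and hba3.L were nonetheless brighter than all genes of that list but type I collagen. Of 15 erythroid genes, 7 were above the array median in all pools, and the list median was -0.62. The brightest were globins: hbd.S at 7.15, 7.26 and 7.26, hba3.L at 6.64, 6.61 and 7.09, then hba2.L (5.20 ± 0.33), hba4.S (4.14 ± 0.10) and hbg2.L (3.85 ± 0.34). The globins hba-l5.L (-0.97), hba1.S (-1.20) and hbg1.L (-2.47) lay below the array median in every pool. The erythroid regulator gata1.L (-1.32) and the anion exchanger slc4a1.L (-0.62) lay below the median. Leukocyte genes had a median of 1.01 over 14, led by the lysosomal protease ctss.S (4.16), the actin bundler lcp1.S (3.67), the antigen presentation chaperone cd74.L (2.87) with its homeolog cd74.S, and coro1a.S (2.83). Their defining surface marker ptprc.L was at -0.84 ± 0.20.

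Neural and Schwann cell genes had a median of 1.01 over 28, with 16 above the array median in all pools. That is 57.1%, near the 58.0% over all named genes. Below the array median in every pool were, among others, elavl3.L (-3.17), ncam1.L (-1.38), sox10.L (-1.06) and ncam1.S (-0.91). Myelin basic protein mbp.S was the brightest at 5.12 ± 0.14, ahead of dpysl3.L (3.10), dpysl3.S (3.08), the neurofilament nefm.L (2.72) and rtn1.L (2.63). Vascular endothelium had 2 of 9 genes above the median in all pools, pecam1.L (2.24 ± 0.14) and tek.S (0.42 ± 0.05), with fli1.S at 0.15, egfl7.S at -0.10 and aplnr.L at -0.25. Of 6 pigment cell genes 5 were above it, with gpnmb.L at 3.72, the melanin enzyme tyrp1.L at 2.57, the melanosome matrix protein pmel-a at 2.45 and pmel.S at 1.60, and pnp.L at 2.15, while the regulator mitf.L was at -2.53.

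The label of tail tissue was checked against markers of organs outside it. None of 16 eye and pituitary genes was above the array median in all pools, and the highest, the lens crystallin crybb1.L, was at -1.75 ± 0.06, ahead of cryba1.L (-1.79), pde6g.S (-1.89), gnat1.L (-2.08) and pomc.S (-2.11). Of 26 liver, pancreas and gut genes, 3 were above the median in all pools: the iron carrier tf.L (6.57, 6.63 and 6.68), tf.S (6.15, 6.02 and 6.30) and ambp.L (0.50 ± 0.40). The next were apob.S (-1.24) and ctrb1.L (-1.33). Insulin (ins.S, -2.59), lipase (pnlip.L, -2.92) and the fibrinogen chain gene fgg.L (-2.70) were at -2.59 or below, with apoa1.L at -2.10 and ttr.L at -2.38. The other fibrinogen readings were higher, fga.S at -1.75, fga.L at -1.78 and fgb.L at -2.46. Apart from transferrin and ambp.L, every gene of these lists had a mean below the array median.

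Of the function lists, those of protein synthesis and energy supply had the highest medians. The cytosolic ribosomal proteins had 59 members among the 100 brightest named genes and a median level of 8.48 over 74 genes. They held 25.1% ± 0.11 (SD, n = 3) of the summed intensity. Only 3 of the 74 were not above the array median in every pool, rps10.L (0.10), rps20.L (-1.71) and rpl28.L (-2.76). The 100 brightest named genes together held 39.1% ± 0.30 of the summed intensity, and the 10 brightest 6.61% ± 0.03. Translation factors had a median of 5.53 over 45 genes, with eif5a.L (8.59) and the elongation factor subunits eef1g.L (8.56) and eef1b2.L (7.65) behind eef1a1.S, then eif1b.L (7.63).

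Oxidative phosphorylation had 76 of 77 genes above the median in all pools and a median level of 5.86. It was led by ATP synthase, with the catalytic subunit atp5f1b.S at 8.66, 8.73 and 8.70 and atp5f1a.L at 8.44 ± 0.09, atp5mc3.S at 8.17, the adenine nucleotide carrier slc25a4.L at 8.03 and the cytochrome oxidase subunit cox5a.S at 7.86. Glycolysis and phosphagen genes had a median of 5.38 over 35, 33 of them above the array median in all pools. The genes of ckm, eno3, pgam2, ak1 and pygm are also on the fast muscle list and count in both. After ckm.L came aldoa.L (8.36 ± 0.14), tpi1.S (8.21 ± 0.20), the muscle enolase eno3.L (7.69 ± 0.34) and pgm1.L (7.30 ± 0.19), and hk2.L was the lowest (-2.45). Bright cytoskeletal genes were the actin-binding peptide gene tmsb4x.L (8.72), the cytoplasmic actins actb.L (8.25) and actg1.L (8.06), pfn1.S (7.19) and tubb4a.S (6.86).

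Protein folding and turnover genes were in the upper range and cell cycle genes were not. Chaperones had a median of 4.03 over 46 genes, led by the prolyl isomerase ppia.L (8.30), hspa1l.S (7.34), hsp90ab1.S (6.96), the chaperonin subunit cct5.S (6.94) and hspa8.L (6.85). The proteasome had 48 of 50 genes above the array median in all pools and a median of 5.0, with psmb1.S (7.17), psmd2.S (6.83), psmd13.S (6.68), psmd1.S (6.53) and psmd1.L (6.48) at the top. Cell cycle and DNA replication genes had a median of -0.19 over 65, with 23 above the array median in all pools (35.4%, against 58.0% over all named genes). The brightest were the replication clamp pcna.L (4.11), stmn1.S (3.77), the histone h2az1.L (3.63), the ribonucleotide reductase subunit rrm1.L (3.30) and stmn1.L (2.41).

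**Figure D2:**
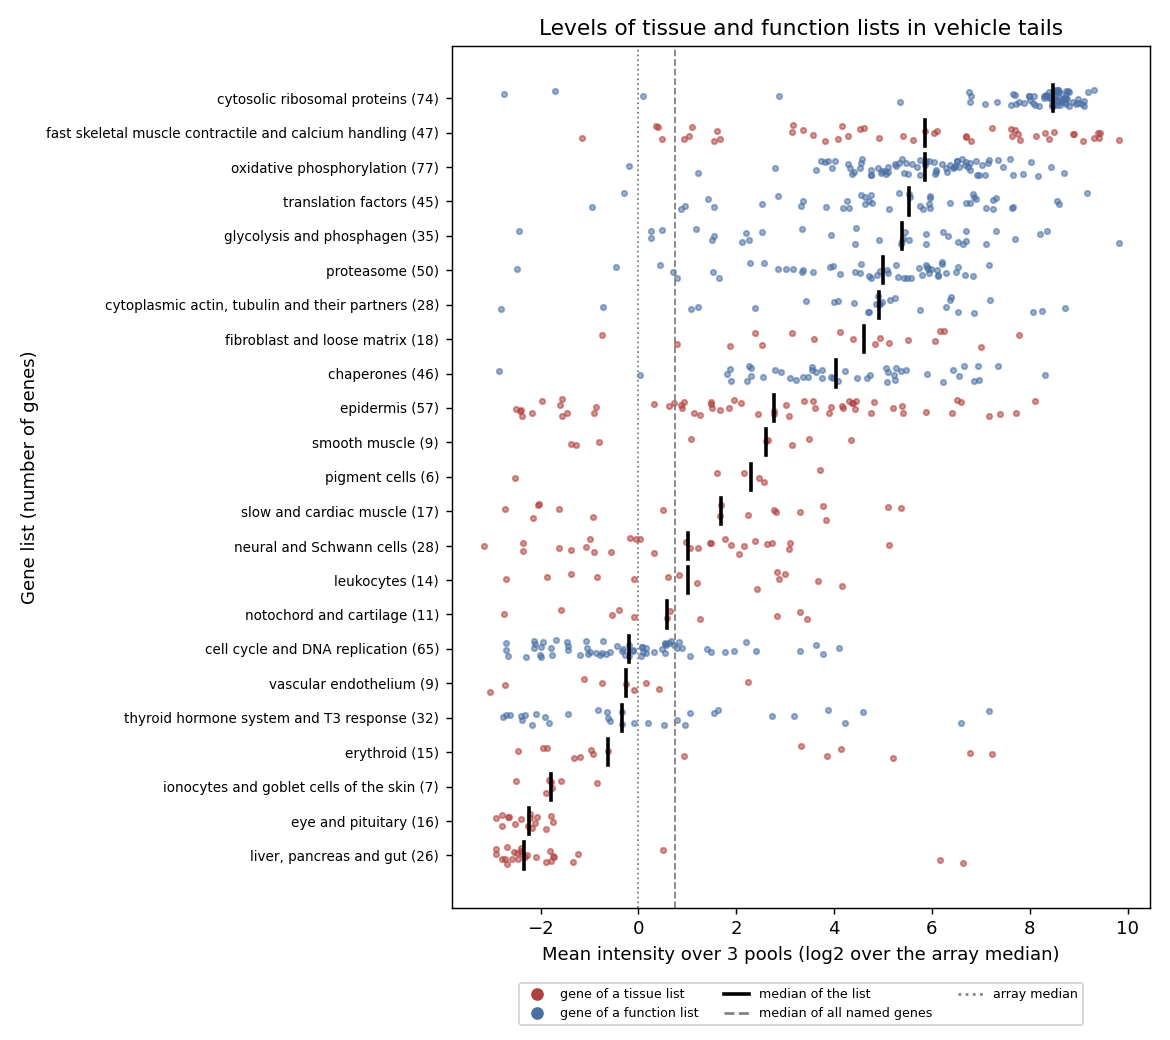
Mean level of each gene on 23 lists, in log2 over the array median, with a bar at the median of the list. Ribosomal proteins lie highest (median 8.48), fast muscle and oxidative phosphorylation follow (5.87 and 5.86), and eye, pituitary, liver, pancreas and gut genes lie lowest.

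The genes through which the tail would later answer thyroid hormone were mostly dim. Thyroid hormone acts through the receptors thra and thrb, which bind DNA with a retinoid X receptor. The hormone is activated by the deiodinase dio2 and inactivated by dio3. No reading of thrb was among the genes of the thyroid hormone list. The receptor thra.L read -1.61, -1.47 and -1.23. Its partners were at -0.58 (rxra.L), -0.63 (rxrg.L), -1.90 (rxrb.L) and -2.31 (rxrb.S), all below the array median. The inactivating enzyme dio3.L was above it, at 1.81, 1.78 and 1.29 and the activating dio2.L was at -2.39 ± 0.11. The cytosolic T3-binding protein crym.S was at -0.65 and the plasma carrier ttr.L at -2.38.

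Of the coregulators, which switch target genes on or off with the receptor, ncoa3.S (1.55), the corepressor ncor1.S (1.06), prmt1.S (3.88) and prmt1.L (3.19) were above the array median and ncoa2.S was at -0.09. These known direct or early targets were below the array median: klf9.L (-0.84), klf9-b (-2.63), thibz.L (-2.76), thibz.S (-2.09), nfix.L (-2.18), crhbp.S (-1.83), mycl.S (-0.35) and mycl.L (-2.71). Not every gene of the list was: dio3.L (1.63), mmp11.L (0.95) and fap.L (0.78) were above it in every pool. The enzymes of matrix breakdown differed. The membrane collagenase mmp14.L was at 4.21 ± 0.07 and the gelatinase mmp2.S at 2.73 ± 0.20, while mmp11.L (0.95 ± 0.35), fap.L (0.78 ± 0.06), mmp13l.S (0.51 ± 0.62) and mmp13l.L (0.19 ± 0.41) were close to the array median. For mmp13l.S the pools read 1.19, 0.39 and -0.04, so it was on both sides of the median within this group. The inhibitor timp2.L was at 4.58 and timp2.S at -0.33. In all, 12 of 32 genes of this list were above the median in every pool (37.5%, against 58.0% over all named genes). The brightest were thdl17.L and thdl18.S, which are also on the epidermal list.

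The question of which homeolog was brighter could be put to 671 pairs, those of 1017 in which the average of the .L and the .S level was at or above the array median. A pair could pass through its bright homeolog alone. The within-array difference, .L minus .S, was tested against 0 with limma over the 3 pools and Benjamini-Hochberg adjustment. It was called in 567 pairs (84.5%), in 309 with .L brighter (46.1%) and in 258 with .S brighter (38.5%). The median difference over all 671 was 0.16, and 364 differed by at least 2-fold, 201 towards .L and 163 towards .S. On the 6 T3 arrays, read with the same probe sets, 518 of the 567 kept their sign on every array. A difference in probe binding would keep its sign too, so this count cannot tell transcript from binding. In 95 pairs the dimmer homeolog was below the array median in all 3 pools, 50 of them with .L and 45 with .S as the brighter.

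Differences between probe sets of the same gene were of similar size. The median absolute difference over the 671 homeolog pairs was 1.14. Where each homeolog had exactly 1 probe set, the median absolute difference was 1.02 over 480 pairs, of which 401 were called (83.5%). Between the readings of genes with exactly 2 probe sets it was 1.09 over 533 genes, of which 462 were called (86.7%). Of these, 54.6% differed by at least 2-fold, against 50.4% of the 480 homeolog pairs. A call thus says that brightness differed by more than the spread between pools. It does not tell more transcript of a homeolog from better binding of its probes, and a probe set can also bind the other homeolog.

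**Figure D3:**
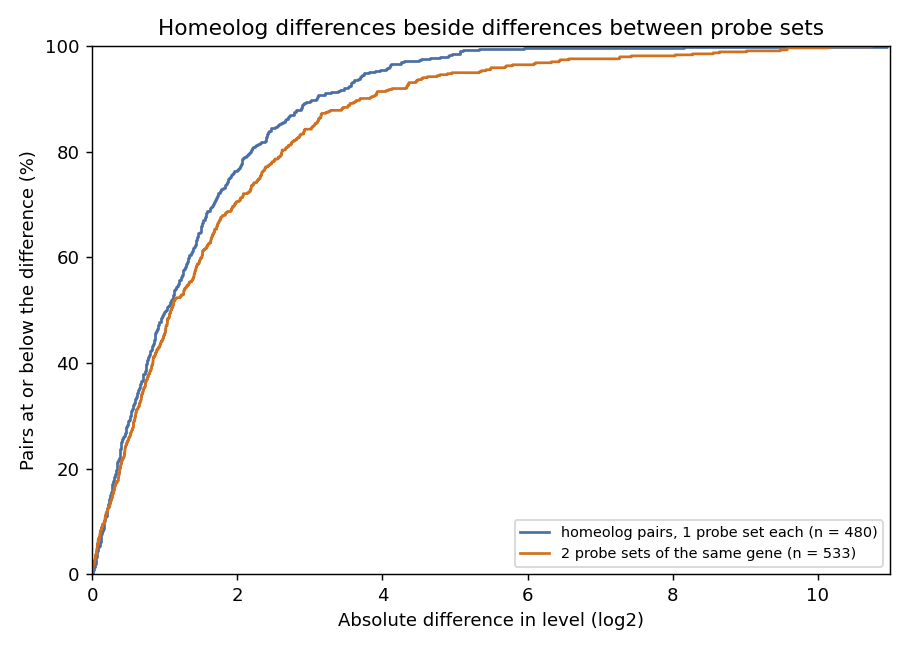
Cumulative percentage of pairs by absolute log2 difference, for homeolog pairs with 1 probe set each (480 pairs) and for 2 probe sets of the same gene (533 genes). The medians are 1.02 and 1.09, and in the upper part the same-gene curve lies at larger differences.

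The 10 largest differences in each direction were far beyond the spread of the pools, with adjusted p between 5.68e-10 and 3.98e-07 in limma. Each kept its sign on all 6 T3 arrays, as a difference in probe binding would. The largest was in the large-subunit ribosomal protein rpl28, whose .S homeolog read 8.23, 8.22 and 8.14 and whose .L homeolog read -2.67, -2.82 and -2.79, a difference of -10.95 ± 0.10 (SE). In the other direction the histone chaperone nap1l1.L read 7.80, 7.60 and 7.79 against -1.32, -1.62 and -1.63 for nap1l1.S, a difference of 9.25 ± 0.11 (SE). Every pair in both sets had its dimmer member within 1 unit of the array median or below it. A difference against a homeolog below the median depends on the background correction.

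Further pairs with a brighter .L were the neural crest and muscle precursor factor pax3 (6.13 ± 0.16), the kinase riok2 (5.95), the protease furin (5.47), the transcription factor tcf3 (5.14), the carnitine carrier slc25a20 (5.07), angel2 (4.93), the metalloproteinase inhibitor timp2 (4.91), ptar1 (4.80) and the heparin cofactor serpind1 (4.66). Those with a brighter .S were nme2 (-8.15 ± 0.20), a nucleoside diphosphate kinase, the oestrogen receptor esr1 (-7.67), the tubulin tuba1c (-7.50), the keratin krt70 (-6.84), rwdd1 (-5.97), the phosphatase inhibitor ppp1r1a (-5.32), the mitochondrial creatine kinase ckmt1b (-5.12), the centrosomal tubulin tubg1 (-5.07) and the amino acid carrier slc1a5 (-4.96). With the mean over all probe sets of a gene, which brings in dimmer readings, the difference was 2.14 for pax3, 2.05 for tcf3, 3.05 for angel2 and -3.12 for rwdd1. For krt70 the .S homeolog varied between pools, at 4.88, 4.57 and 3.83, and the .L homeolog stayed at -2.33, -2.46 and -2.46. For ppp1r1a.S pool 1 was low, at 5.57 against 6.52 and 6.74.

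Within the lists the direction was mixed. Fast muscle had 8 tested pairs, 4 brighter in .L and 4 in .S. Of 10 glycolysis and phosphagen pairs, 2 were brighter in .L and 8 in .S, against 46.1% and 38.5% over all pairs. Ribosomal proteins had 5 of 8 brighter in .L, 1 in .S (rpl28, the pair above) and 2 not called, with a median absolute difference of 0.28. Oxidative phosphorylation had 5, 5 and 4 of 14 pairs in these classes, chaperones 8, 5 and 2 of 15, the proteasome 4, 5 and 2 of 11, and epidermis 4, 6 and 2 of 12. Among neural genes 5 of 7 were brighter in .L and 1 in .S. These counts cover few pairs a list and were not tested.

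**Figure D4:**
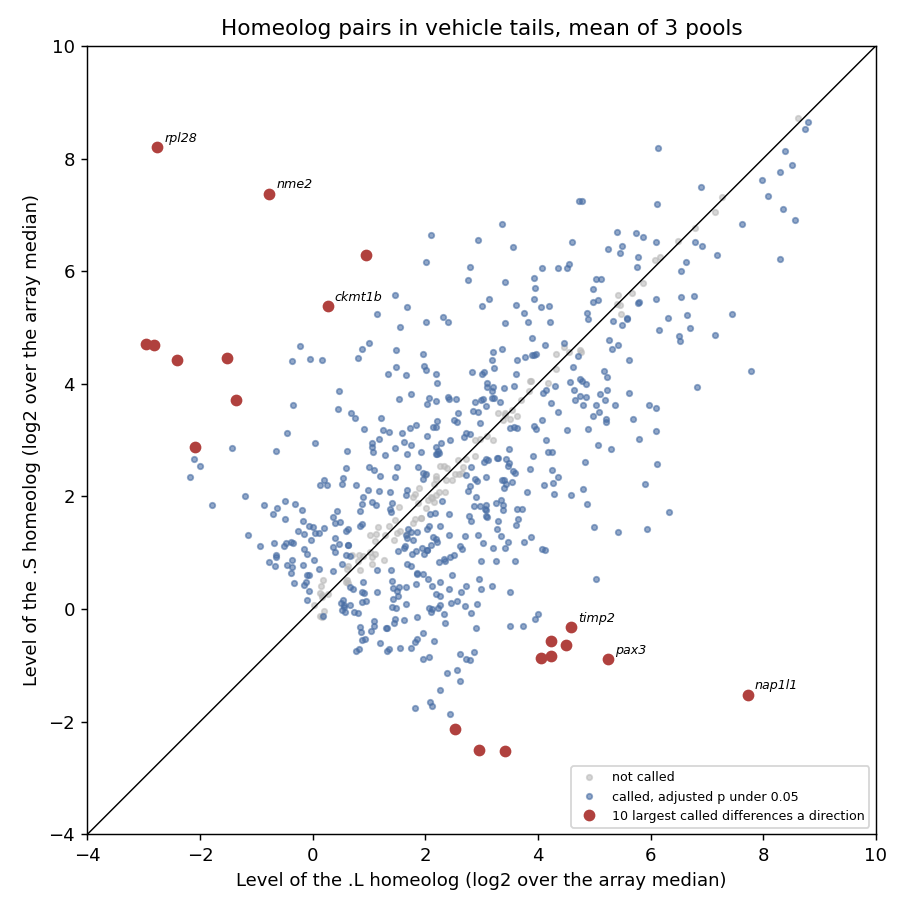
Mean level of the .S homeolog against that of the .L homeolog for 671 pairs, in log2 over the array median. Blue pairs were called, grey ones were not, and red ones are the 10 largest called differences in each direction. The line marks equal brightness, and pairs lie on both sides of it, 309 called towards .L and 258 towards .S.

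The pools themselves were close. Over the 7755 probe sets at or above the array median, the median SD over pools was 0.15, and 238 probe sets spanned at least 2-fold between the lowest and the highest pool. The median SD fell from 0.15 for levels of 0 to 1 to 0.10 for levels of 6 and over. With limma's intensity trend as the yardstick, 0 of 7755 variances were called (0%). An unadjusted p under 0.05 in this F test was found for 382, about as many as evenly spread p-values would give. The trend was fitted to these same variances, so this match says little about the spread of the pools. On simulated data this test found 9.2% of probe sets whose SD was raised 10-fold, so a count of 0 says little. Without a level filter 14 of 15491 were called, 6 of them among the 15 genes named below. The genes that follow are therefore a description of the most variable readings. The level filter was on the mean over pools, so a probe set could pass through its high pool alone. Of the genes below, akr1d1.L and myl3.L were above the array median in pool 2 only. For them a high pool 2 was a condition of entry and supports nothing.

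Among the 15 named genes with the largest SD, klf2.S and egr1.L are fast-responding regulators that were high in pool 2. The shear- and stress-responsive factor klf2.S read 2.00, 3.82 and 0.93, and its other probe set gave the same order, 1.87, 3.55 and 1.31. The growth-response factor egr1.L read 2.53, 4.44 and 2.50. The protease-activated receptor f2rl1.S read 0.70, 2.64 and 0.71, with its homeolog f2rl1.L at -0.14, 0.35 and -0.11. The cytokine feedback inhibitor socs3.L was low in pool 3, at 2.27, 2.58 and 0.65. The mitochondrial arginase arg2.S read 2.94, 4.60 and 2.68, and its other probe set 4.75, 5.63 and 5.11, again highest in pool 2, while arg2.L spanned 6.22 to 6.45. The slow and cardiac light chain myl3.L read -0.03, 1.75 and -0.22 and myl3.S -1.24, -0.13 and -1.45, both highest in pool 2. Both myl3 probe sets end in _x_at and may bind the same transcripts, so they may not be separate readings.

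Other variable genes had a further reading that differed from the first in spread or size. The proline-degrading enzyme aldh4a1.L had the largest SD, 2.17, at -1.84, 2.37 and 1.18, but its other probe set read 4.89, 4.74 and 5.06. A dimmer probe set of eef1a1.S read 3.56, 6.37 and 5.33, whereas the bright one spanned 9.13 to 9.22. The methyl-CpG-binding factor zbtb33.S read 4.43, 7.04 and 6.11, in the same order of pools, from a probe set ending in _s_at. Its further probe sets had means of 0.80 and -0.86, with SDs of 0.08 and 0.14. The zinc finger gene znf622.L read 3.82, 1.61 and 3.73, with 0.26, -0.12 and 0.66 from another probe set and 1.63, 1.72 and 1.99 for znf622.S. Both probe sets of znf622.L were lowest in pool 2, and znf622.S was not.

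The steroid-reducing enzyme akr1d1.L was high in pool 2 (-0.32, 2.22 and -0.56) and the related akr1c8p.S was low there (1.24, -0.35 and 1.62). The antibacterial lysozyme gene lyz.L was highest in pool 3 (0.63, -0.34 and 2.22). Of the genes known only by an identifier, LOC100158288 read 5.88, 3.55 and 5.83 and LOC733321 3.32, 1.74 and 3.87, both low in pool 2. Another probe set of LOC733321, ending in _x_at, gave the same order, at 3.48, 2.28 and 4.01.

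The same probe sets can be read within the T3 groups, which had no part in the choice. The choice was by a large vehicle SD, so a smaller SD in another group can follow from the choice alone. For egr1.L the SD was 1.11 in vehicle, 0.21 over the T3 6 h pools and 0.11 over the T3 48 h pools. For klf2.S these values were 1.46, 0.32 and 0.53. In contrast aldh4a1.L varied as much at 6 h (SD 2.49) and less at 48 h (0.87), and LOC100158288 had SDs of 2.22 and 0.88. The dim eef1a1.S probe set and zbtb33.S again went alike, with SDs of 1.67 and 1.64 at 6 h and 0.05 and 0.14 at 48 h. Over the 100 probe sets with the largest vehicle SD, the median SD was 0.82 in vehicle, 0.32 at 6 h and 0.41 at 48 h. Over all 7755 these values were 0.15, 0.15 and 0.20. Of those 100, pool 2 was the pool farthest from the other two in 52, high in 27 and low in 25. Over all 7755 it was high in 1016 and low in 1559.

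**Figure D5:**
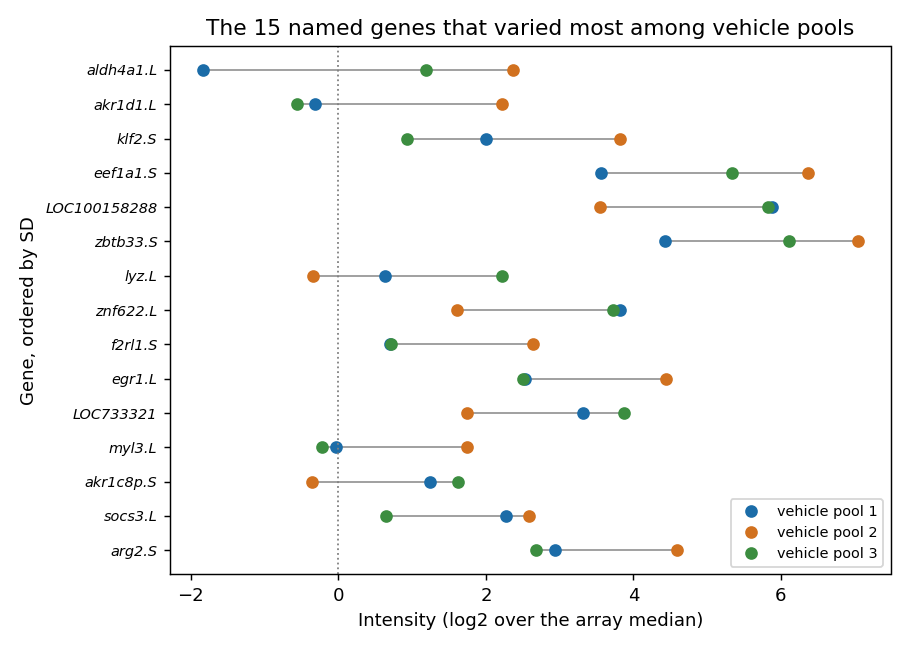
Level of the 15 named genes with the largest SD among the vehicle pools, 1 point per pool, in log2 over the array median. aldh4a1.L, akr1d1.L, klf2.S, eef1a1.S, zbtb33.S, f2rl1.S, egr1.L, myl3.L, socs3.L and arg2.S are highest in pool 2, and LOC100158288, lyz.L, znf622.L, LOC733321 and akr1c8p.S are lowest there.

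The pool with the highest value differed between gene groups. Over 4546 named genes at or above the array median, pool 1 was the highest in 37.3%, pool 2 in 26.6% and pool 3 in 36.0%. A list of immediate early and stress-response factors was drawn up after the high pool 2 values of klf2.S and egr1.L had been seen, and it holds both. Its count, 27 of 42 highest in pool 2, is therefore a description that supports nothing. Among its other genes are the phosphatase dusp1.L (4.18, 4.79 and 3.55) with dusp1.S (2.79, 3.42 and 2.13), junb.L (3.08, 3.92 and 2.50), jun.L (0.31, 1.63 and -0.03) and the RNA-decay factor zfp36.L (4.78, 5.18 and 4.07), each lowest in pool 3. The small heat shock protein gene hspb1.S went the other way, at 3.83, 2.90 and 4.50, as did hspb1.L, lowest in pool 2 at 2.64 and highest in pool 3. Of the 42, 8 were highest in pool 1 and 7 in pool 3. Highest in pool 1 were for instance nr4a1.L (3.77, 3.24 and 2.74) and klf6.L (3.61, 3.43 and 3.34).

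Oxidative phosphorylation was highest in pool 2 in 50 of 76 genes (65.8%) with a median deviation from the gene mean of 0.07, and glycolysis in 20 of 34 (58.8%) with 0.11. The proteasome was highest there in 2 of 48 (4.17%), with a median deviation of -0.13, and psmd2.S was lowest there, at 6.50 against a mean of 6.83. Fibroblast and matrix genes were highest in pool 2 in 12 of 17. Erythroid genes were highest in pool 3 in 6 of 7, at a median deviation of 0.17, and leukocyte genes in 6 of 9, at 0.29. Neural genes were highest in pool 1 in 13 of 17. Ribosomal and fast muscle genes had median deviations between -0.01 and 0.02 in every pool, with a median SD per gene of 0.07 and 0.14. With 1 array per pool these differences have no test, and whether the make-up of the dissected tails or their handling moved with them was not tested.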

How the data were processed

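RNA from pools of tails was hybridised to 9 Affymetrix Xenopus laevis arrays, and the 3 vehicle arrays were analysed. The authors deposited linear intensities made with GCRMA, per the submitters' processing notes, which give no version. The median of every deposited column was 1. Log2 was taken and 120 control probe sets were left out. Arrays have no read depth, and their number limits the precision. Symbols came from the platform annotation. Of 15491 probe sets 9304 had 1 gene, 195 several and 5992 none listed, and 9227 matched a RefSeq table of assembly Xenopus_laevis_v10.1, used for names only (2 symbols updated). Those without exactly 1 gene were left unnamed.

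Homeolog differences were tested within arrays with limma 3.58.1 in R 4.3.3 (intercept, eBayes with trend on the pair mean) and pool variances as an F ratio to limma's robust intensity-trended prior. Both used Benjamini-Hochberg adjustment, a threshold of 0.05 and a filter at the array median. On simulated data the test of differences recovered most of the changes, whereas the test of variances rarely found even large ones, so its count of 0 says nothing about stability. Named were the 25 brightest genes, the 5 brightest of each list, all thyroid hormone genes, 10 homeolog pairs a direction, the 15 most variable genes, the lowest markers of other organs and the 5 brightest genes with an SD under the median. The last are ckm.L, mylpf.L, tpm1.L, myh8.L and rps29.S. Other genes were chosen after their values were seen. Members and lists were chosen with earlier results of these data known. Probe and gene sequences and genomic positions were not used here.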

Additional observations from a re-analysis of the deposited data

How the results depend on the processing

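No paired analysis was possible because no groups of arrays are compared, and the homeolog test is itself paired within arrays. With the mean over all probe sets of a gene in place of its brightest, the fast muscle share of summed intensity was 7.75% and the ribosomal share 25.3%, and 19 of the 25 brightest genes stayed among the 25. Without 1 pool in turn, the fast muscle share lay between 8.46% and 8.61%, the ribosomal share between 25.03% and 25.14%, and fast muscle and ribosomal proteins had 13 to 14 and 59 to 60 of the 100 brightest genes. Without probe sets ending in _s_at, _x_at or _a_at these counts were 10 and 56, an alternative chosen after seeing the data. The homeolog calls without 1 pool were 539 to 545, of which 289 to 297 had a brighter .L and 244 to 251 a brighter .S. Without a level filter 852 of 1017 pairs were called, 464 towards .L and 388 towards .S, and with a level of at least log2 2 it was 316 of 376, 163 and 153. These counts follow the number of pairs tested. Variances called were 14 without a level filter, 0 with a level of at least 2, 0 under quantile normalization and 0 without any 1 pool, which was chosen after seeing the data. No homeolog pair named in the text changed sign or lost its call under an alternative in which it was tested. Not every named pair was tested under each. Without probe sets ending in _s_at, _x_at or _a_at, pax3, krt70, esr1 and nme2 were not tested, so their differences were not read apart from such probe sets. Over the mean of all probe sets, however, pax3 went to 2.14, tcf3 to 2.05, angel2 to 3.05, rwdd1 to -3.12 and nap1l1 to 7.33, and furin and krt70 did not pass the level filter. Levels below the array median depend on the background correction, and the files hold no detection calls.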

Other observations

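Some of the 100 brightest named genes matched none of the lists by symbol, 13 in all, chosen here after their values were seen. Not all lie outside the groups that the lists describe. The fast muscle list names desmin as des, which des.1.S did not match. The elongation factor eef2.1.L and the ribosomal-named rps28p9.S also went unmatched, so the list counts leave them out. The mitochondrial isocitrate dehydrogenase idh2.S was at 8.50 ± 0.04, the elongation factor eef2.1.L at 8.60 ± 0.09 and the desmin gene des.1.S, which codes for the intermediate filament of muscle, at 8.18 ± 0.17. The muscle-enriched kinase of nicotinamide riboside, nmrk2.S, was at 7.85 ± 0.18, the cold-shock protein gene ybx3.S at 8.28 ± 0.07, the mitochondrial ferritin ftmt.S at 7.95 ± 0.16 and the guanine nucleotide enzyme impdh2.L at 7.79 ± 0.14. Among the 100 brightest probe sets, 33 carry no name here, 17 of them matching several genes and 16 having none listed.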
